A study of Mus musculus with 27 samples.

Results

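The 10 genes described here encode transcriptional regulators of effector CD8 T cell fate: Tbx21, Eomes, Prdm1, Id2, Id3, Zeb2, Runx3, Bhlhe40, Batf and Irf8. They were taken by symbol from the 35275 genes in the expression tables, and each symbol matched 1 gene. Levels were measured by RNA sequencing as FPKM, the number of fragments per kilobase of transcript scaled to the number of mapped fragments, in 27 libraries that form 9 groups of 3. P14 CD8 T cells, which all carry 1 transgenic T cell receptor, came from mice of 3 genotypes. WT mice carried no further transgene. Lin28bTg mice expressed Lin28b, an RNA-binding protein that blocks maturation of let-7 microRNAs. Let-7Tg mice carried a let-7g transgene in the Col1a1 locus that doxycycline switches on.

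Cells of each genotype were collected at 3 stages. Naive cells (0 h) received no treatment in culture. The 12 h cells were stimulated with antibodies to CD3 (2 μg/mL) and CD28 (5 μg/mL). The day 5 cells, cytotoxic T lymphocytes (CTLs), were started with irradiated splenocytes and anti-CD3 (2 μg/mL), received IL-2 (100 U/mL) at 48 h and were grown for 3 more days. Doxycycline (2 μg/mL) was in the culture medium of all activated cells, WT included, and by the methods of the study mice of all genotypes drank it for 4 days beforehand. The labels give lymph nodes as the tissue, and the study describes the mice as Rag2-/- and as 6 to 10 weeks old, of both sexes. The Lin28b transgene was on from thymic development onwards, so naive Lin28bTg cells had matured under it. These are bulk samples, in which fewer cells of a type and less RNA per cell cannot be told apart.

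T-bet (encoded by Tbx21) and Eomesodermin are related T-box factors that activate effector genes such as those for interferon gamma and perforin, and Eomesodermin is also kept in memory cells. Id2 and Id3 lack a DNA-binding region of their own and act by holding E proteins off DNA. Id2 is known for its place in effector cells and Id3 for its place in naive cells and memory precursors. Blimp-1 (Prdm1), Zeb2 and Bhlhe40 are mainly repressors, and the first of them and Zeb2 are known for terminal effector differentiation. Runx3 sets the CD8 lineage, Batf joins Jun proteins on DNA, often beside an interferon regulatory factor, and Irf8 is such a factor, needed also in dendritic cells and other myeloid cells.

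The genotypes differ in let-7, so the microRNA that the transgene encodes and close relatives are shown to make the shared part visible. Capitals mark the seed, bases 2 to 8, the stretch that pairs with a target. The sequences are those of RefSeq on GRCm38.p6, where let-7g lies at chr9:106178846-106178867 on the plus strand.
mmu-let-7g-5p: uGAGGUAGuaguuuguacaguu
mmu-let-7a-5p: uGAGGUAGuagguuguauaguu
mmu-miR-98-5p: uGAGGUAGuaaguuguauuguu
mmu-let-7j: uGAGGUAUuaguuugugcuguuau
Of 11 mature sequences of the family, 10 shared the seed of let-7g, and let-7j did not. The DNA match to this seed, CTACCTC, was searched on the transcribed strand of the annotated 3′ UTR of each gene's longest coding transcript. It was found in 0 of the 10 genes, whose 3′ UTRs measured 335 to 4941 bases, and in 1854 of 20952 genes overall (8.85%). As a check of the search, the 3′ UTRs of Lin28b and Hmga2 held 4 matches each. A gene without a match only lacks these letters in this window.

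Depth ranged from 13862706 to 23591069 reads per library. The targeted genes went with the labels: Lin28b stood at 9.94 to 67.9 FPKM in the 9 Lin28bTg libraries and at 0 to 0.059 in all others, and Col1a1, the locus of the let-7g transgene, at 9.06 to 62.8 FPKM in Let-7Tg libraries against 0.0716 to 1.43 in WT. The 4 CD8 T cell markers summed to less in Lin28bTg than in the other genotypes at each stage, with 2141 to 2412 against 2480 to 2854 FPKM in naive cells, 524 to 607 against 609 to 747 at 12 h and 1147 to 1321 against 1364 to 1693 at day 5. Naive Lin28bTg libraries also held RNA of other cells. The summed level of 7 myeloid markers was 139, 662 and 371 FPKM in their replicates 1, 2 and 3 against 25.6 to 59.7 in the 6 other naive libraries, and 6 of the 7 markers were higher than in WT by the test used below. Markers of erythroid cells (212 to 823 against 1.41 to 122 FPKM), CD4 T cells (21.9 to 81.4 against 6.14 to 15.9) and natural killer cells (29.6 to 86.6 against 11.4 to 27.2) stood higher in these 3 libraries as well, and B cell markers did not (358 to 423 against 379 to 448). At 12 h the myeloid sum was 4.94 to 9.32 FPKM in Lin28bTg against 0.942 to 5.98, the erythroid sum 32.4 to 312 against 0.67 to 53.5, the CD4 T cell sum 3.82 to 4.56 against 0.845 to 3.58 and the natural killer cell sum 3.83 to 11.4 against 3.19 to 5.67. At day 5 the defining myeloid genes were at or near 0 in all libraries (Lyz2 at most 0.0807, Csf1r at most 0.021 FPKM), and the Lin28bTg sum of 3.61 to 7.99 came from Itgam and Itgax. The natural killer cell sum at day 5, 63.5 to 161 against 3.01 to 43.6, came from Klrb1c, with Ncr1 and Klra8 at most 0.0896. The B cell sum at day 5 was lower in Lin28bTg, at 31.9 to 142 FPKM against 178 to 248 in WT and Let-7Tg. The part of these markers in the 12 h and day 5 results was not tested. For the naive results, Lin28bTg values are also given from replicate 1 alone, a choice made after the data were seen. Its myeloid sum, 139 FPKM, was the lowest of the 3 but still above the other naive libraries. Its erythroid sum, 442 FPKM, lay above that of replicate 3 (212).

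**Figure D1:**
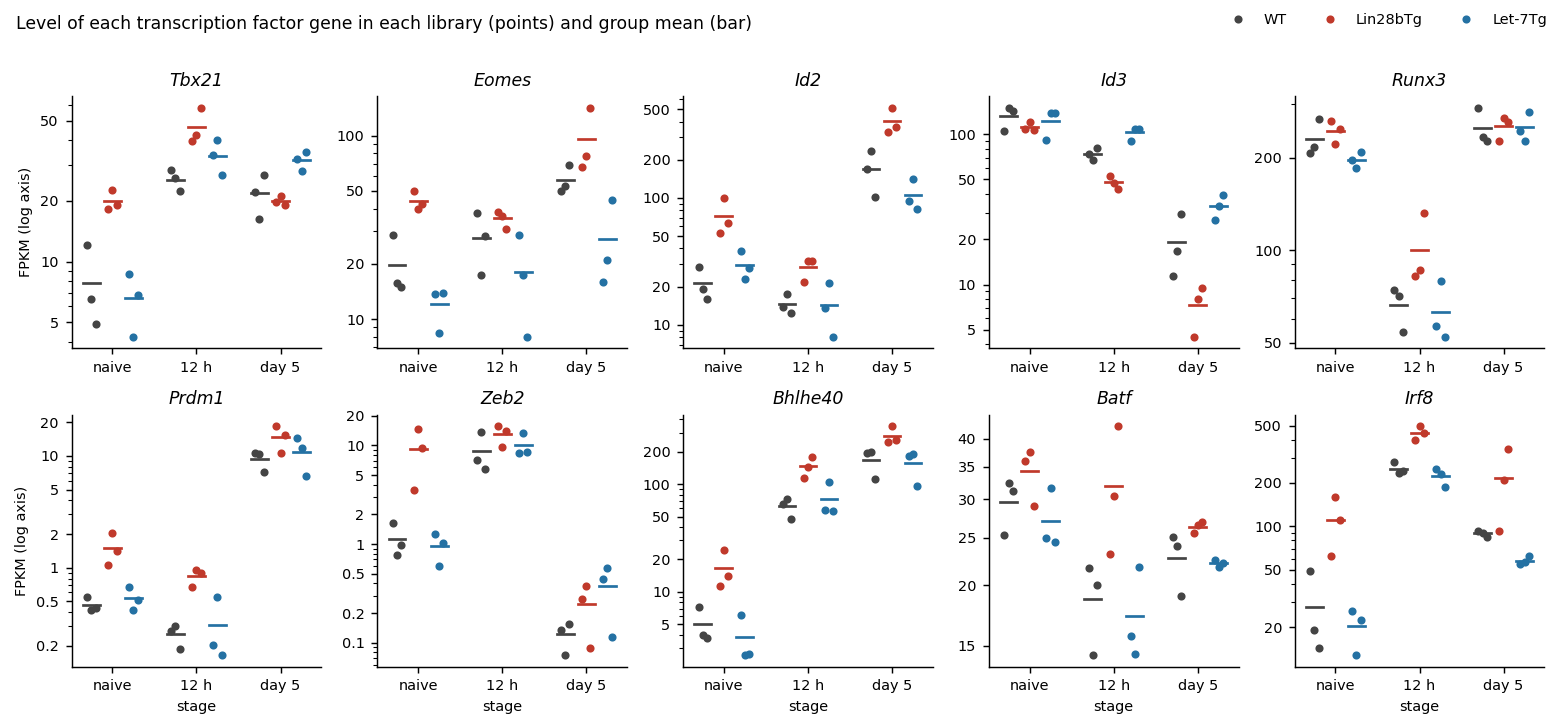
FPKM of the 10 genes in each library (points, log axis) and the group mean (bar), by stage and genotype, 3 libraries per group. Lin28bTg points lie above all WT points for Tbx21, Eomes, Prdm1, Id2, Zeb2, Bhlhe40 and Irf8 in naive cells, and for Id2, Prdm1 and Bhlhe40 at all 3 stages, while Id3 falls from 92.2 to 149.9 FPKM in naive cells to 4.49 to 39.6 at day 5.

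How many of the 10 genes differed between genotypes depended on the pair and the stage. Differences are log2 fold changes from limma on log2(FPKM + 0.5), with a standard error (SE) and a p-value adjusted by Benjamini-Hochberg over all genes tested, called at 0.05. In naive cells 7 of 10 were higher in Lin28bTg than in WT and 0 were lower, where 34.6% of 13277 genes were called, 19.2% higher and 15.4% lower. The median difference of the 10 was 1.24, against -0.04 over all genes. All of these 7 but Eomes ranked across the naive Lin28bTg replicates as the summed myeloid, natural killer cell and CD4 T cell markers did. The part of RNA from other cells was not tested in any of the 7, Eomes included. With naive Lin28bTg as its replicate 1 alone, the same 7 genes still stood higher, by 0.70 to 1.37 on the log2 scale. A group of 1 library has no spread of its own, so calls from that fit are not set beside these shares. Against Let-7Tg, 8 of 10 were higher in naive Lin28bTg cells and 0 lower (44.0% of genes called, 23.2% higher and 20.8% lower). Between Let-7Tg and WT, 0 of 10 were called in naive cells by limma, where 0.934% of genes were called and 1934 genes had an unadjusted p under 0.05. Runx3 alone among the 8 was a narrow call, lost without a filter on low values and when any of 5 of the 6 libraries was left out.

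At 12 h, 5 of 10 differed between Lin28bTg and WT, 4 higher (Tbx21, Prdm1, Bhlhe40, Irf8) and 1 lower (Id3), where 8.47% of 12239 genes were called, 6.14% higher and 2.33% lower. The median over the 10 was 0.76, against -0.01 over all genes. Without WT replicate 3 the count was 2, and without Lin28bTg replicate 2 or 3 it was 3. Against Let-7Tg, 7 were higher and Id3 lower (30.8% called, 16.5% higher and 14.3% lower). That count was 4 without Lin28bTg replicate 3, which held the highest Tbx21, Runx3, Bhlhe40 and Batf of its stage. Id3 was the 1 gene called between Let-7Tg and WT (3.23% called). Same-numbered WT and Let-7Tg libraries deviated together at 12 h, and with the replicate number as a block 0 were called.

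At day 5, Id2 was the 1 gene of 10 called between Lin28bTg and WT, where 4.34% of 13030 genes were called, 2.03% higher and 2.31% lower. The median over the 10 was 0.47, against -0.00132 over all genes. Same-numbered day 5 libraries deviated together, and with the replicate number as a block in the fit 4 of 10 were called (Eomes, Id2, Id3, Bhlhe40). The shares over all genes in this paragraph belong to the fit without the block, so they are no background for the blocked counts. No share over all genes with the block is given here. Whether the block raised calls among these genes more than among all genes is therefore not known. Without WT replicate 1 or 3, or Lin28bTg replicate 2 or 3, the count without the block was 0, and without Lin28bTg replicate 1 it was 2, with Irf8 added. Between Let-7Tg and WT 0 of 10 were called (0.929% of genes, with 1637 genes at an unadjusted p under 0.05), and 3 with the block (Eomes, Id2, Id3). Without Let-7Tg replicate 3 Eomes was called in the fit without a block. Between Lin28bTg and Let-7Tg 6 of 10 were called, 5 higher in Lin28bTg and Id3 lower (21.7% of genes called, 10.8% in each direction).

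**Figure D2:**
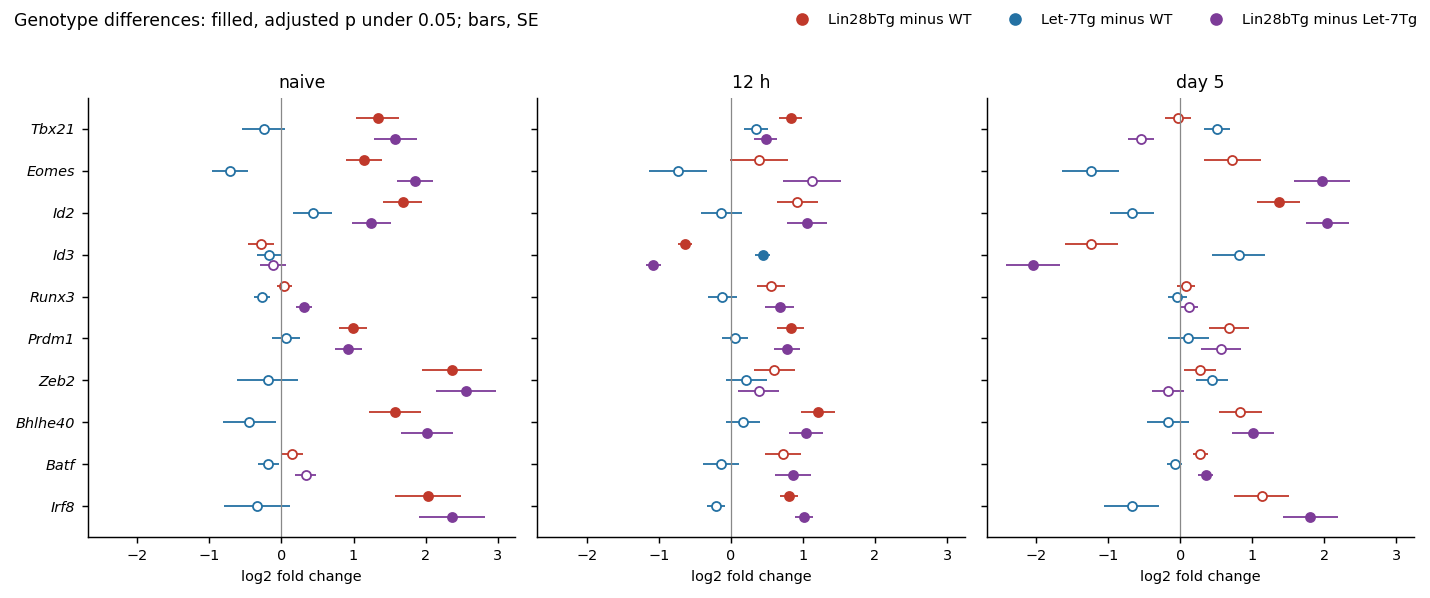
Log2 fold change of each gene with its SE (horizontal bars) for the 3 genotype contrasts at each stage; filled points have an adjusted p under 0.05 in limma. Filled points lie to the right for 7 genes in naive Lin28bTg against WT, and Id3 is the gene with filled points to the left at 12 h and day 5.

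Tbx21 (chr11:97098071-97115331, minus strand, GRCm38) was higher in Lin28bTg than in WT cells when naive and at 12 h and stood highest in Let-7Tg at day 5. In naive cells it stood at 12.1, 6.55 and 4.89 FPKM in WT, at 18.3, 22.5 and 19.2 in Lin28bTg and at 8.66, 4.23 and 6.81 in Let-7Tg. Every Lin28bTg library lay above all others, and the WT and Let-7Tg libraries overlapped. The log2 fold change over WT was 1.33 (SE 0.30, adjusted p = 0.00872), and 1.26 with replicate 1 alone (adjusted p = 0.145). At 12 h the WT libraries held 28.4, 25.9 and 22.3 FPKM, Lin28bTg 39.6, 42.3 and 58.0, and Let-7Tg 33.7, 39.9 and 27. Lin28bTg again lay above every WT library, by 0.83 (SE 0.16, adjusted p = 0.0134), and overlapped Let-7Tg. The call against WT was lost without WT replicate 3. That against Let-7Tg (0.48, adjusted p = 0.0478) was lost without any 1 of 4 libraries, Lin28bTg replicates 2 and 3 and Let-7Tg replicates 1 and 3. It was also lost without scaling between libraries, without a filter on low values, on the 6 libraries compared and with the replicate block (adjusted p = 0.0724). At day 5 the order was different, with 22.1, 16.4 and 26.8 FPKM in WT, 19.8, 21.3 and 19.1 in Lin28bTg and 32.3, 28.1 and 35.0 in Let-7Tg. The Let-7Tg libraries lay above all 6 others. The difference of Lin28bTg from Let-7Tg was -0.54 (SE 0.18), with adjusted p = 0.0609, and 0.0272 with the replicate block, and that of Let-7Tg from WT was 0.51 (adjusted p = 0.269).

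Eomes (chr9:118478212-118486132, plus strand) was higher in naive Lin28bTg cells than in those of both other genotypes, and in CTLs it was higher in Lin28bTg than in Let-7Tg. Naive WT cells held 28.8, 15.7 and 14.9 FPKM, naive Lin28bTg cells 49.8, 39.8 and 42.5 and naive Let-7Tg cells 13.8, 8.38 and 13.9. The 3 groups did not overlap. Lin28bTg stood 1.14 above WT (SE 0.25, adjusted p = 0.00758, and 0.071 with replicate 1 alone, where the difference was 1.37), and Let-7Tg stood at -0.72 from WT (adjusted p = 0.224). At 12 h the values were 37.6, 17.3 and 28.2 FPKM in WT, 38.5, 36.4 and 31.1 in Lin28bTg and 28.9, 17.4 and 8.0 in Let-7Tg. No pair was called at this stage. At day 5 WT held 50.1, 53.3 and 69.3 FPKM, Lin28bTg 67.7, 77.5 and 141.7, and Let-7Tg 15.9, 20.9 and 44.6. All Let-7Tg libraries lay below all WT libraries, and WT and Lin28bTg overlapped. Lin28bTg exceeded Let-7Tg by 1.97 (SE 0.39, adjusted p = 0.00769). Against WT, Let-7Tg stood at -1.25 (adjusted p = 0.198, with the replicate block 0.0147) and Lin28bTg at 0.72 (adjusted p = 0.358, with the block 0.026).

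The ratio of Tbx21 to Eomes within a library separated all 3 genotypes at day 5. In CTLs it was 0.442, 0.307 and 0.387 in WT, 0.292, 0.274 and 0.134 in Lin28bTg and 2.03, 1.35 and 0.784 in Let-7Tg. The 3 groups did not overlap, and Tbx21 exceeded Eomes in 2 of the 3 Let-7Tg cultures and in none of the 6 others. An exact permutation test of 3 libraries against 3 cannot go below p = 0.1, and none was run on the ratios. In naive cells the Let-7Tg ratios, 0.491 to 0.63, lay above those of WT, 0.328 to 0.42, and overlapped those of Lin28bTg. The 12 h ratios were 0.755 to 3.38 and the groups overlapped.

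Id2 (chr12:25093799-25097140, minus strand) was the member whose Lin28bTg libraries lay above every WT library at all 3 stages and whose difference was called at day 5. In naive cells its level was 28.6, 19.0 and 16.0 FPKM in WT, 52.7, 100.6 and 64.0 in Lin28bTg and 37.9, 22.9 and 28.1 in Let-7Tg. The difference from WT was 1.68 (SE 0.27, adjusted p = 0.00202), and 1.33 with replicate 1 alone (adjusted p = 0.0508). The highest value came from the library with the most myeloid marker RNA. At 12 h Id2 stood at 13.8, 17.4 and 12.5 FPKM in WT, 21.7, 32.1 and 31.6 in Lin28bTg and 13.7, 21.5 and 8.06 in Let-7Tg. Here Lin28bTg exceeded WT by 0.92 without a call (adjusted p = 0.0774) and Let-7Tg by 1.05 with one (SE 0.28, adjusted p = 0.0202), a call lost without Lin28bTg replicate 2 or 3. In CTLs the levels were 169, 235 and 102 FPKM in WT, 334, 513 and 364 in Lin28bTg and 95.3, 141.2 and 82.6 in Let-7Tg. The lowest Lin28bTg culture lay above the highest of any other genotype. Lin28bTg exceeded WT by 1.36 (SE 0.30, adjusted p = 0.0396, with the replicate block 0.00242) and Let-7Tg by 2.04 (SE 0.30, adjusted p = 0.00198). The call against WT without the block was lost without WT replicate 1 or 3 or without Lin28bTg replicate 2 or 3, and without scaling or the filter. Let-7Tg stood at -0.67 from WT (adjusted p = 0.401, with the block 0.0407).

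Id3 (chr4:136143497-136145755, plus strand) ran the other way and was lower in Lin28bTg at 12 h and day 5. Naive levels were close together, at 105, 149.9 and 142 FPKM in WT, 108, 120.2 and 106 in Lin28bTg and 92.2, 139 and 138 in Let-7Tg. No pair was called in naive cells (Lin28bTg minus WT -0.29, adjusted p = 0.243). At 12 h Id3 stood at 73.9, 67.9 and 80.5 FPKM in WT, at 52.7, 47.7 and 43.5 in Lin28bTg and at 90.4, 109 and 109 in Let-7Tg. The 3 genotypes were separate, with Lin28bTg lowest and Let-7Tg highest. Lin28bTg fell below WT by 0.64 (difference -0.64, SE 0.10, adjusted p = 0.0053) and below Let-7Tg (-1.08, SE 0.10, adjusted p = 0.000104). Both calls held whichever library was left out. Let-7Tg lay above WT by 0.44 (SE 0.10, adjusted p = 0.0496), a call lost without any of 5 of the 6 libraries, Let-7Tg replicate 1 being the exception, with the replicate block (adjusted p = 0.0714), with a pseudocount of 1, without the filter and on the 6 libraries alone. At day 5 WT held 11.5, 16.7 and 29.5 FPKM, Lin28bTg 4.49, 8.01 and 9.44, and Let-7Tg 26.7, 33.5 and 39.6. Lin28bTg lay below all 6 other libraries. The difference was -2.05 from Let-7Tg (SE 0.37, adjusted p = 0.00492) and -1.24 from WT (adjusted p = 0.105, with the replicate block 0.00436). The difference of Let-7Tg from WT was 0.81 (adjusted p = 0.418, with the block 0.0373).

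The ratio of Id2 to Id3 within a library sets both genes side by side. It was 0.113 to 0.271 in naive WT cells and 0.486 to 0.836 in naive Lin28bTg cells. At day 5 it rose to 14.8, 14.1 and 3.47 in WT, 74.4, 64.0 and 38.6 in Lin28bTg and 3.57, 4.22 and 2.09 in Let-7Tg. The Lin28bTg ratios lay above all others at every stage.

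**Figure D3:**
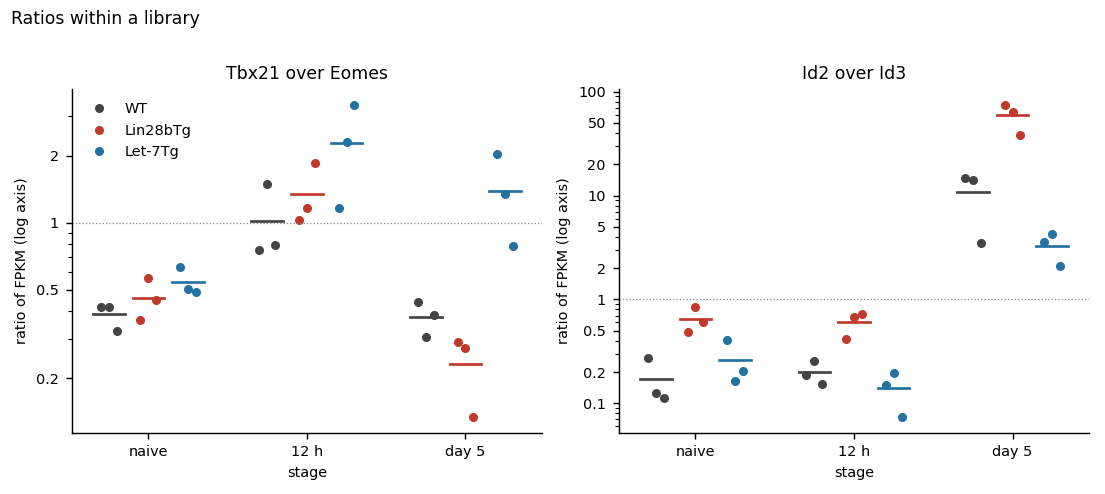
FPKM of Tbx21 over Eomes and of Id2 over Id3 in each library (points, log axis), with the group mean (bar) and a dotted line at 1, 3 libraries per group. At day 5 the Tbx21 to Eomes ratio is 0.784 to 2.03 in Let-7Tg and below 0.5 in all others, and the Id2 to Id3 ratio is 38.6 to 74.4 in Lin28bTg and at most 14.8 elsewhere.

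Runx3 (chr4:135120652-135177990, plus strand) had lower means at 12 h (62.8 to 100.4 FPKM) than at the other stages (197 to 253) in every genotype. It ranged from 185 to 267 FPKM in naive libraries and from 226 to 291 at day 5, with all genotypes overlapping at day 5. Its difference between naive Lin28bTg and Let-7Tg cells, the narrow call named above, was 0.31 (adjusted p = 0.0386). At 12 h it stood at 74.2, 70.8 and 54.3 FPKM in WT, 82.7, 86.3 and 132 in Lin28bTg and 56.9, 79.2 and 52.3 in Let-7Tg. The fall from naive to 12 h was called in each genotype (-1.57 in WT, adjusted p = 1.23e-08; -1.08 in Lin28bTg; -1.44 in Let-7Tg), and so was the return by day 5 (1.77, 1.28 and 1.89). Lin28bTg lay above all other 12 h libraries, by 0.56 over WT (adjusted p = 0.118) and 0.68 over Let-7Tg (adjusted p = 0.0282, lost without Lin28bTg replicate 3 or Let-7Tg replicate 1 or 3).

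Prdm1 (chr10:44437177-44528501, minus strand) was low before day 5. Naive cells held 0.545, 0.419 and 0.44 FPKM in WT, 1.07, 2.04 and 1.40 in Lin28bTg and 0.668, 0.421 and 0.512 in Let-7Tg. Lin28bTg was higher than WT by 0.99 (SE 0.19, adjusted p = 0.00424), and by 0.70 with replicate 1 alone (adjusted p = 0.0817). At 12 h it was 0.273, 0.3 and 0.189 FPKM in WT, 0.676, 0.961 and 0.897 in Lin28bTg and 0.205, 0.543 and 0.165 in Let-7Tg. The counts behind these values were small, at 10 to 17 reads in WT, 36 to 55 in Lin28bTg and 9 to 28 in Let-7Tg. Every Lin28bTg library lay above all others. Lin28bTg exceeded WT by 0.83 (SE 0.18, adjusted p = 0.0232) and Let-7Tg by 0.78 (adjusted p = 0.0116), on a scale where the added 0.5 FPKM shrinks the change. The call against WT was lost without WT replicate 1 or 3 or without Lin28bTg replicate 2 or 3. By day 5 Prdm1 had risen to 10.7, 10.4 and 7.17 FPKM in WT, 18.5, 10.7 and 15.4 in Lin28bTg and 14.5, 11.7 and 6.65 in Let-7Tg. It rose from 12 h in all 3 genotypes (by 3.65, 3.45 and 3.73, all called), and no pair of genotypes was called at day 5.

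Zeb2 (chr2:44983632-45117395, minus strand) had the widest range of the 10, its group means spanning 109-fold. Naive WT cells held 1.65, 0.782 and 0.982 FPKM and Let-7Tg 1.26, 0.604 and 1.02, whereas Lin28bTg held 3.54, 14.8 and 9.36. The 3 Lin28bTg values ranked as their summed myeloid markers did (139, 662 and 371 FPKM). The difference from WT was 2.37 (SE 0.42, adjusted p = 0.00311), and 1.33 with replicate 1 alone (adjusted p = 0.056). At 12 h Zeb2 was 7.11, 13.5 and 5.81 FPKM in WT, 15.7, 9.72 and 14.2 in Lin28bTg and 8.37, 13.3 and 8.59 in Let-7Tg. The genotypes overlapped and no pair was called. Among naive cells the myeloid sum of WT and Let-7Tg was 25.6 to 59.7 FPKM, and at 12 h, when Zeb2 was higher there, it was at most 5.98. The part of myeloid RNA in the level of Zeb2 was not tested at either stage. At day 5 Zeb2 was nearly absent, at 0.0751 to 0.154 FPKM in WT (5 to 10 reads), 0.0893 to 0.376 in Lin28bTg (7 to 28 reads) and 0.115 to 0.575 in Let-7Tg (8 to 46 reads). The fall from 12 h was called in all genotypes (-3.95, -4.30 and -3.69). Zeb2os, an antisense gene sharing exon sequence, was listed at 0 to 0.905 FPKM, and whether reads were counted by strand is not given in the sources used here.

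Bhlhe40 (chr6:108660629-108666925, plus strand) rose at each step of activation and stood highest in Lin28bTg. In naive cells it was 7.22, 3.97 and 3.76 FPKM in WT, 11.3, 24.4 and 14.2 in Lin28bTg and 6.16, 2.59 and 2.63 in Let-7Tg. Lin28bTg was 1.57 above WT (SE 0.37, adjusted p = 0.00984), and 1.15 with replicate 1 alone (adjusted p = 0.184). The 12 h levels were 64.8, 73.5 and 47.9 FPKM in WT, 114.5, 145 and 179 in Lin28bTg and 57.9, 104.8 and 56.9 in Let-7Tg. Every Lin28bTg library exceeded every other, by 1.21 over WT (SE 0.24, adjusted p = 0.0137, lost without WT replicate 3 or Lin28bTg replicate 2 or 3) and 1.04 over Let-7Tg (adjusted p = 0.0101). At day 5 WT held 196, 197 and 111 FPKM, Lin28bTg 245, 346 and 256, and Let-7Tg 183, 191 and 95.6. The Lin28bTg cultures again lay above all others. The difference was 0.83 from WT (adjusted p = 0.158, with the replicate block 0.0207) and 1.00 from Let-7Tg (adjusted p = 0.0382, lost when any of 5 of the 6 libraries was left out, Let-7Tg replicate 2 being the exception, and without scaling or the filter).

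Batf (chr12:85686669-85709087, plus strand) was the steadiest of the 10, its group means spanning 1.98-fold. It was 24.5 to 37.6 FPKM in naive libraries with the genotypes overlapping. At 12 h it was 21.7, 14.4 and 20.0 FPKM in WT, 23.1, 30.6 and 42.4 in Lin28bTg and 15.7, 14.4 and 21.8 in Let-7Tg. Lin28bTg lay above all others, by 0.72 over WT (SE 0.25, adjusted p = 0.114) and 0.86 over Let-7Tg (SE 0.25, adjusted p = 0.029), the latter lost without Lin28bTg replicate 2 or 3 or Let-7Tg replicate 1 or 2. At day 5 the Lin28bTg cultures, at 25.6, 26.6 and 26.9 FPKM, exceeded Let-7Tg, at 22.5, 21.8 and 22.2, by 0.35 (SE 0.10, adjusted p = 0.0415, lost when any 1 of the 6 libraries was left out and without scaling). WT stood at 25.1, 24.1 and 19.0 FPKM.

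Irf8 (chr8:120736358-120756694, plus strand) peaked at 12 h and was higher in Lin28bTg at that stage. Naive cells held 49.2, 19.2 and 14.5 FPKM in WT, 62.4, 159 and 111 in Lin28bTg and 26.1, 12.9 and 22.4 in Let-7Tg. Within Lin28bTg, Irf8 ranked as the myeloid markers did, and so did Tbx21, Prdm1, Id2, Zeb2 and Bhlhe40, but not Eomes. The natural killer cell and CD4 T cell markers ranked in the same order as the myeloid markers. The difference from WT was 2.03 (SE 0.46, adjusted p = 0.00854), and 1.35 with replicate 1 alone (adjusted p = 0.211). At 12 h Irf8 stood at 279, 233 and 244 FPKM in WT, 398, 495 and 443 in Lin28bTg and 249.9, 232 and 186 in Let-7Tg. No Lin28bTg library overlapped another genotype. The differences were 0.80 from WT (SE 0.12, adjusted p = 0.00449) and 1.02 from Let-7Tg (SE 0.12, adjusted p = 0.000436), and both were called whichever library was left out. The myeloid marker sum of these Lin28bTg libraries was at most 9.32 FPKM, and the part of myeloid RNA in the level of Irf8 was not tested. At day 5 WT held 93.6, 90.8 and 84.7 FPKM, Lin28bTg 93.6, 209 and 346, and Let-7Tg 55.0, 56.8 and 62.2. Let-7Tg lay below all 6 others, and the Lin28bTg cultures spread widely. Lin28bTg exceeded Let-7Tg by 1.80 (SE 0.38, adjusted p = 0.00984). Its difference from WT was 1.13 (adjusted p = 0.144, called without Lin28bTg replicate 1) and that of Let-7Tg from WT was -0.68 (adjusted p = 0.547).

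**Figure D4:**
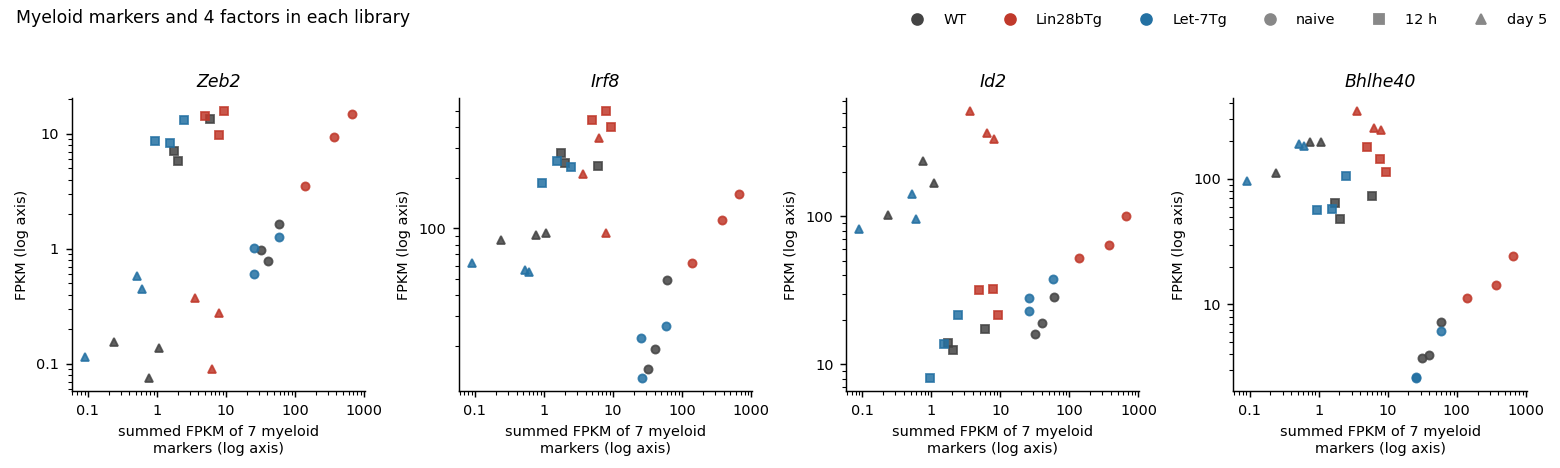
FPKM of Zeb2, Irf8, Id2 and Bhlhe40 against the summed FPKM of 7 myeloid markers in each library (both log axes; colour for genotype, symbol for stage). The 3 naive Lin28bTg libraries lie at 139 to 662 on the x axis, apart from the 6 other naive libraries at 25.6 to 59.7, while the 12 h and day 5 libraries lie below 10.

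At each step from a stage to the next, 5 to 9 of the 10 genes were called, and so were most of all genes. A step goes with a change of stimulus and culture as well as of time, and these cannot be told apart. From naive to 12 h, 5 of 10 were called in WT, 7 in Lin28bTg and 6 in Let-7Tg, where 70.9%, 73.7% and 69.3% of 14453 genes were called. From 12 h to day 5 the counts were 8, 9 and 7, where 67.4%, 66.5% and 67.1% were called. Tbx21, Zeb2, Bhlhe40 and Irf8 rose to 12 h in each genotype, led by Bhlhe40 (3.76 in WT, 3.37 in Lin28bTg, 4.34 in Let-7Tg) and Irf8 (3.58, 2.33 and 3.68). The rise of Zeb2 in Lin28bTg was 0.88 (adjusted p = 0.0297), and 1.88 when naive Lin28bTg was replicate 1 alone. This call was lost without scaling, with a pseudocount of 0.1, without the filter, on 6 libraries and without naive replicate 1 (0.36) or 12 h replicate 1 or 3. Id2 fell to 12 h in Lin28bTg (-1.07) and Let-7Tg (-0.87) and was not called in WT (-0.28). The Let-7Tg call was lost without naive replicate 1 (adjusted p = 0.076) or 12 h replicate 3 (-0.55, adjusted p = 0.154). The Lin28bTg fall of Id2 was -0.74 with replicate 1 alone (adjusted p = 0.154). Id3 fell in Lin28bTg (-0.98, adjusted p = 0.00224), stood at -0.60 in WT (adjusted p = 0.0504) and at -0.01 in Let-7Tg. In WT the fall was called under 6 of 8 other settings (adjusted p from 0.00154) and without naive replicate 1 or 12 h replicate 3. From 12 h to day 5, Prdm1, Id2, Runx3 and Bhlhe40 rose and Id3, Zeb2 and Irf8 fell in all 3 genotypes. Id2 rose by 3.28 in WT, 3.72 in Lin28bTg and 2.79 in Let-7Tg, and Id3 fell by 2.16, 2.77 and 1.75. Tbx21 fell in Lin28bTg (-1.27, adjusted p = 0.000104) and was not called in WT (-0.39) or Let-7Tg (-0.19). Eomes rose in WT (0.96) and Lin28bTg (1.27) and was not called in Let-7Tg (0.49). The call for Eomes was lost in WT without 12 h replicate 2 or 3 or day 5 replicate 2 or 3, and in Lin28bTg without day 5 replicate 3. That for Irf8 in Lin28bTg (-1.31) was lost without day 5 replicate 1, and those for Bhlhe40 were lost in Lin28bTg (0.87) without 12 h replicate 1 or day 5 replicate 2 and in Let-7Tg (0.96) without replicate 1 or 3 at 12 h or replicate 1 or 2 at day 5. Without scaling between libraries the median of all genes from naive to 12 h moved by -0.14 to -0.17.

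Whether a genotype effect itself differed between stages was tested with an F test over the 27 libraries. For Lin28bTg against WT, 2 of 10 genes passed (17.7% of 14453 genes did), Tbx21 (adjusted p = 0.018) and Zeb2 (adjusted p = 0.00927). In the fits within a stage, the effect on Tbx21 was 1.33, 0.83 and -0.04 at the 3 stages and that on Zeb2 was 2.37, 0.60 and 0.27. At day 5 Zeb2 rested on 5 to 28 reads per library in these genotypes, where the added 0.5 FPKM shrinks any effect. With naive Lin28bTg as its replicate 1 alone neither passed (adjusted p = 0.116 and 0.356). For Lin28bTg against Let-7Tg, Tbx21 (adjusted p = 0.000203), Id3 (adjusted p = 0.00112) and Zeb2 (adjusted p = 0.000499) passed, where 33.3% of genes did. All 3 still passed with replicate 1 alone, at adjusted p = 0.00487, 0.0124 and 0.039. On 12 h and day 5 alone Tbx21 remained (adjusted p = 0.0312), its effect against Let-7Tg moving by -1.08. For Let-7Tg against WT 0 of 10 passed (1.08% of genes did, and 1704 genes had an unadjusted p under 0.05).

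Of 15 genes that pair with these factors or are their close relatives, 14 were tested, all but Bhlhe41. In naive cells 5 of 14 differed between Lin28bTg and WT, close to the share over all genes (34.6%), 4 higher and 1 lower, among them Batf3 (1.78, adjusted p = 0.000867), a relative of Batf found in dendritic cells, Runx2 (1.61, adjusted p = 0.000934) and Irf4 (0.82, adjusted p = 0.00554), a partner of Batf. The list's median was 0.02. These naive counts, and those of the effector genes below, include the libraries with the most myeloid, natural killer cell and CD4 T cell marker RNA. The part of that RNA in the counts was not tested. At 12 h 6 were higher and 1 lower (8.47% of all genes called), led by the Jun proteins Jund (0.56, adjusted p = 0.00915) and Jun (1.30, adjusted p = 0.0108) and by the E protein gene Tcf3 (0.46, adjusted p = 0.00976). At day 5 Irf4 was lower (-0.96, adjusted p = 0.0353) and Runx2 higher (0.91, adjusted p = 0.0461), where 4.34% of all genes were called. Against Let-7Tg, 5, 8 and 2 of the 14 were called at the 3 stages, where 44.0%, 30.8% and 21.7% of all genes were, and Irf4 was lower in Lin28bTg at 12 h (-0.71) and day 5 (-1.40, adjusted p = 0.00181). Jund was the 1 gene called between Let-7Tg and WT, at 12 h (-0.54, adjusted p = 0.029, 3.23% of all genes called).

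Of 12 effector genes known as targets of such factors, 12, 9 and 10 were tested at the 3 stages. Between Lin28bTg and WT 7, 4 and 5 were called, where 34.6%, 8.47% and 4.34% of all genes were. In naive Lin28bTg cells 6 were higher than in WT, among them the chemokine gene Ccl5 (1.87, adjusted p = 0.000945) and the cytokine receptor gene Il2rb (0.58, adjusted p = 0.000554), and perforin (Prf1) was lower (-0.72, adjusted p = 0.000864). At 12 h 4 were higher and 0 lower, with Ifng, interferon gamma, at 2.70 (adjusted p = 0.000583) and the granzyme gene Gzma at 1.48 (adjusted p = 0.0209). At day 5 4 were higher and 1 lower, with Prf1 at 3.53 (adjusted p = 0.000733), Gzmb at 1.46 (adjusted p = 0.00984) and Ifng at 2.87 (adjusted p = 0.0171). The direction of Prf1 thus differed between naive cells and CTLs, a difference not tested on its own. The list's median was 1.24, 0.95 and 1.03 at the 3 stages, against -0.04, -0.01 and -0.00132 over all genes. Against Let-7Tg, 10, 6 and 7 were called, where 44.0%, 30.8% and 21.7% of all genes were, with Prf1 at 4.16 at day 5. Ifng was the 1 target called between Let-7Tg and WT, at 12 h (-1.39, adjusted p = 0.029). All values of partners and targets are from the fit without the replicate block, also where same-numbered libraries deviated together. How they change with the block or on leaving out a library is not given here.

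Ordered by group mean, the 10 genes peaked in different groups. The highest mean lay in Lin28bTg cells for Tbx21, Zeb2 and Irf8 at 12 h, for Batf in naive cells, and for Eomes, Prdm1, Id2, Bhlhe40 and Runx3 at day 5. Of these top groups, only those of Id2, Bhlhe40 and Irf8 did not overlap the next group. How many of all genes peaked in Lin28bTg cells, or did so without overlap, was not computed, so these placements set the 10 genes apart from no others. The day 5 means of Runx3 were close, at 253.2 FPKM in Lin28bTg, 251.6 in Let-7Tg and 250.5 in WT. The Batf peak lay in the naive Lin28bTg libraries that held RNA of other cells. Id3 was highest in naive WT cells, at 132.5 ± 23.8 FPKM (SD, n = 3), and lowest in Lin28bTg CTLs, at 7.31 ± 2.55. Most neighbours in these orders did not differ beyond their spread: of 8 neighbouring pairs of groups, 7 overlapped for Tbx21, 6 for Eomes, Id2, Zeb2, Runx3 and Batf, 5 for Prdm1 and Irf8, and 4 for Id3 and Bhlhe40. The separate neighbours of Id3 included all 3 genotypes at 12 h.

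Likeness of pattern was measured as Pearson's r of mean log2 levels over the 9 groups, which share stages, libraries and scaling, and is given without a test. Among the 10, the most alike were Prdm1 and Id2 (r = 0.954) and Tbx21 and Irf8 (r = 0.886), and the most opposed were Prdm1 and Id3 (r = -0.913) and Id2 and Id3 (r = -0.905). Over all genes tested, the pattern of Tbx21 was nearest to Tbkbp1 and Mcm5 (r = 0.967 for both) and that of Eomes to Nkiras2 (0.984) and Dusp9 (0.980). Id2 was nearest to Jdp2 (0.994) and Pwwp2b (0.988), and Id3 to Ptpn6 (0.990) and Rhot2 (0.987). Prdm1 was nearest to 1500009L16Rik and Tbc1d31, Zeb2 to Tcaf2 and Gpx1, Runx3 to H2-Q7 and Iqgap1, Bhlhe40 to Ube2s and Lrp8, and Irf8 to Plek and Fbxl19, with r between 0.984 and 0.997. The nearest patterns to Batf were less close, at 0.935 for Mark4 and 0.893 for Tubb2b.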

How the data were processed

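RNA was sequenced from 27 libraries of mouse CD8 T cells, 3 for each of 9 groups. The authors aligned reads with TopHat (v2.0.9) and Bowtie (v2.0.6), counted them per gene with HTSeq (v0.6.1) and deposited FPKM values, 1 table per stage. Per the submitters' processing notes the build was GRCm38. The tables also hold the authors' group means, DESeq2 fold changes, p-values and clusters, which were not used. The values fell on whole reads per gene (all of them, tolerance 0.01), which gave the depth of each library.

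Libraries were scaled by a trimmed mean (30% of ratios, 5% of levels), and log2(FPKM + 0.5) was tested with limma (3.58.1) in R (4.3.3), with Benjamini-Hochberg adjustment at 0.05 over genes with at least 10 reads at median depth in 3 libraries and 15 reads in the fit. Genotypes were compared within a stage (9 libraries per fit). Stage steps and differences between stages came from a fit of all 27. Fold changes on this scale understate those of low genes. The code was tested on simulated data. Replicates are numbered in the labels, which do not say that they came from separate animals, while the study calls them biological. At day 5 the deviations of all 9 same-numbered pairs of libraries correlated (r 0.246 to 0.714), so the number pairs these samples and blocked values are given. At 12 h the 3 pairs of WT and Let-7Tg libraries did as well (r 0.24 to 0.549), so blocked values are also given for that contrast, and the other 6 pairs stayed under 0.1. In naive cells 3 of 9 pairs were over 0.1, in no contrast all 3.

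The 10 genes and the lists of partners, targets and markers were chosen with earlier results of these data known. All 10 genes are named, with at most 3 partners and 3 targets per contrast, those with the smallest adjusted p, and the 2 genes of nearest pattern for each. Positions and 3′ UTRs came from GENCODE on GRCm38. Tests were repeated under other scalings, pseudocounts (0.1 and 1) and filters, with voom on the recovered reads, a replicate block, and each library left out. Shares over all genes are those of the fit without these changes.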

Additional observations from a re-analysis of the deposited data

Results flagged for a closer look

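The effect of Lin28bTg against WT differed between stages for Tbx21 (F test in limma over 27 libraries, adjusted p = 0.018) and Zeb2 (adjusted p = 0.00927). These were 2 of the 10 genes, where 17.7% of 14453 genes passed. Against Let-7Tg the effect differed for Tbx21 (adjusted p = 0.000203), Id3 (adjusted p = 0.00112) and Zeb2 (adjusted p = 0.000499), 3 of 10 where 33.3% of genes passed. Both counts lay near the share over all genes. In the fits within a stage, the Tbx21 difference from Let-7Tg was 1.58 in naive cells, 0.48 at 12 h and -0.54 at day 5. That of Id3 was -0.12, -1.08 and -2.05, and that of Zeb2 was 2.56, 0.39 and -0.17. At day 5 Zeb2 rested on few reads in every genotype (5 to 46 per library), where the added 0.5 FPKM shrinks any effect. The naive Lin28bTg libraries, whose summed myeloid markers were 139 to 662 FPKM against 25.6 to 59.7, enter these tests. With naive Lin28bTg as its replicate 1 alone, neither gene passed against WT (adjusted p = 0.116 for Tbx21 and 0.356 for Zeb2), and Tbx21, Id3 and Zeb2 passed against Let-7Tg (adjusted p = 0.00487, 0.0124 and 0.039).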

How the results depend on the processing

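Counts of the 10 genes called were recomputed under 293 alternatives, of which 259 stayed within 1.5 times the reported count. Of 2130 alternative fold changes of single genes 100 fell below the threshold and 46 passed it. A further 31 changed sign, 28 of them on leaving out 1 library, and 0 of the 31 were called before or after. Without scaling Runx3 in Let-7Tg against WT at day 5 was 0.0094 and Batf in Lin28bTg from naive to 12 h was -0.13, and with replicate 1 alone Batf was -0.053 there. With replicate 1 alone, naive Lin28bTg is a lone library that the fit assumes to vary like the others. No count of naive genotype calls is therefore given for that setting. At 12 h the count for Let-7Tg against WT was 0 with a pseudocount of 1, the replicate block (which pairs these genotypes at 12 h), no filter or only the 6 libraries compared, and that for Lin28bTg against Let-7Tg was 5 without the filter. At day 5 the count for Lin28bTg against WT was 0 without scaling, without the filter and on 6 libraries, and 4 with the replicate block. That for Let-7Tg against WT was 3 with the block, and the block also called Tbx21 between Lin28bTg and Let-7Tg and changed no other day 5 call of the 10 genes. Between stages the numbers are not known to pair libraries, and there the block gave 8 in WT from naive to 12 h. For differences between stages, Let-7Tg against WT gave 1 with the block, and Lin28bTg against WT gave 1 with voom, 0 with replicate 1 alone and 0 on 12 h and day 5. Lin28bTg against Let-7Tg gave 1 on 12 h and day 5. The cause was not tested. On leaving out 1 library the fold changes that crossed 0 ran as follows. In naive Let-7Tg against WT, Tbx21 ran from -0.51 to 0.089, Zeb2 from -0.35 to 0.018, Irf8 from -0.69 to 0.17, Prdm1 from -0.022 to 0.14 and Id3 from -0.33 to 0.037. At 12 h Prdm1 ran from -0.13 to 0.16, Zeb2 from -0.015 to 0.53, Bhlhe40 from -0.080 to 0.30, Batf from -0.33 to 0.018 and Id2 from -0.43 to 0.19 in this contrast, and at day 5 Runx3 from -0.15 to 0.060, Prdm1 from -0.10 to 0.40 and Bhlhe40 from -0.42 to 0.13. In Lin28bTg against WT, Runx3 ran from -0.039 to 0.16 in naive cells and Tbx21 from -0.24 to 0.14 at day 5. Among the steps, Eomes (-0.21 to 0.020) and Batf (-0.12 to 0.26) in Lin28bTg and Id3 in Let-7Tg (-0.26 to 0.064) crossed 0 to 12 h, and Batf in WT to day 5 (-0.047 to 0.30). Leaving out 1 library gave, for Lin28bTg against WT, 7 to 7, 2 to 6 and 0 to 2 at the 3 stages. For Let-7Tg against WT it gave 0 to 0, 0 to 1 and 0 to 1, and for Lin28bTg against Let-7Tg 7 to 8, 4 to 8 and 4 to 5. The steps to 12 h and to day 5 gave 5 to 7 and 7 to 8 in WT, 6 to 7 and 8 to 9 in Lin28bTg, and 5 to 7 and 6 to 7 in Let-7Tg. Differences between stages gave 2 to 3, 0 to 0 and 3 to 4 for these contrasts. Depth limits low levels: 10 reads on a 2 kb transcript equal 0.212 to 0.361 FPKM, so Prdm1 at 12 h and Zeb2 at day 5 rest on few reads.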
